A study of Mesocricetus auratus with 24 samples.

Results

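MicroRNA genes were read in the inferior colliculus (IC), the auditory midbrain, of hamsters with and without inherited audiogenic seizures. Members were chosen by their mean signal: they were the genes with a microRNA symbol, carried by a probe set with 1 gene symbol, whose mean over all 24 arrays reached at least 4 on the log2 scale. The probe set with the highest mean stood for each gene. Of the 300 microRNA genes with such a probe set, 167 (55.7%) were members, among 19938 genes tested in all. Mirlet7c-1 (mean 4.11) and Mir350 (mean 4.45) were named in the rule beforehand and also met it by their means. Mir99ahg and Mir670hg are the 2 members that are long host transcripts, and all others carry the symbol of a microRNA gene.

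The RNA came from the IC of hamsters aged 16 weeks in 4 groups of 6 arrays. The groups were control Syrian hamsters that were naïve, control Syrian hamsters exposed to auditory stimulation, naïve animals of the genetic audiogenic seizure hamster (GASH/Sal), a line bred for seizures evoked by loud sound, and stimulated GASH/Sal animals. Tissue of stimulated animals was taken 60 min later. GASH/Sal and Syrian animals differ in their whole genetic background, so a strain difference cannot be tied to the seizures, and sound and seizure cannot be told apart in the stimulated GASH/Sal group. The probes on the array were designed for mouse genes.

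MicroRNAs are short RNAs that lower the translation and stability of messenger RNAs with matching sites. They are transcribed as long primary transcripts, from genes of their own or from the introns and exons of host genes. Drosha and Dgcr8 cut a hairpin precursor out of these in the nucleus, and Dicer1 cuts the precursor to the mature form that an Argonaute protein carries. In brain they take part in neuronal differentiation and in the control of synapses by activity. Whole-transcript labelling, as used here after clean-up of the RNA on silica columns, reads mainly long RNA. The values are therefore read as the signal of primary transcripts, precursors or hosts, and no value here is an amount of mature microRNA. Background signal of the probes is not told apart from it. Genes of a family with nearly the same mature sequence (let-7, miR-30, miR-181) can share signal between their probe sets. Probe sets of different genes have no common scale, so differences were tested within a gene, and means of different genes or classes describe probe signal, with no order of RNA amounts.

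Across genes, any 2 arrays correlated at 0.965 to 0.993, and no column was a copy of another. The arrays naïve GASH/Sal 6 and stimulated Syrian 4 stood apart from the rest. Over all genes, each had a mean correlation with the other arrays of its group of 0.969, whereas the other 22 arrays were at 0.982 or above. Animal names follow 1 pattern in replicates 1 to 3 of every group (label series A here) and another in replicates 4 to 6 (label series B), whose meaning the sources used here do not give. Markers of the midbrain roof (En1, En2, Pax7 and Meis2) had means of 5.02 to 8.42 and the neuronal markers means of 4.61 to 9.65. None of the marker lists of neurons, glia, vessels, blood, choroid plexus and cerebellum had a gene past the adjusted threshold in any contrast (0 genes). No gene of the whole table passed either (0%), so this count cannot show that tissue makeup was equal. In bulk tissue, fewer cells of a type and less RNA per cell cannot be told apart.

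The name "with signal" holds for these genes only in part. The minimum of 4 lay at percentile 27.4 of the means of all genes, and 57 of the 167 members had a mean under the median gene (4.90). Among 1238 genes of olfactory and vomeronasal receptors and keratin-associated proteins, which brain tissue is not expected to use, 188 (15.2%) also reached 4. Of 51 small nucleolar RNA genes, another class of short non-coding genes, 18 (35.3%) did, against 72.6% of all genes. The share of microRNA genes at or above 4 thus lay between these classes. The minimum set the members, so their means are a description.

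**Figure D1:**
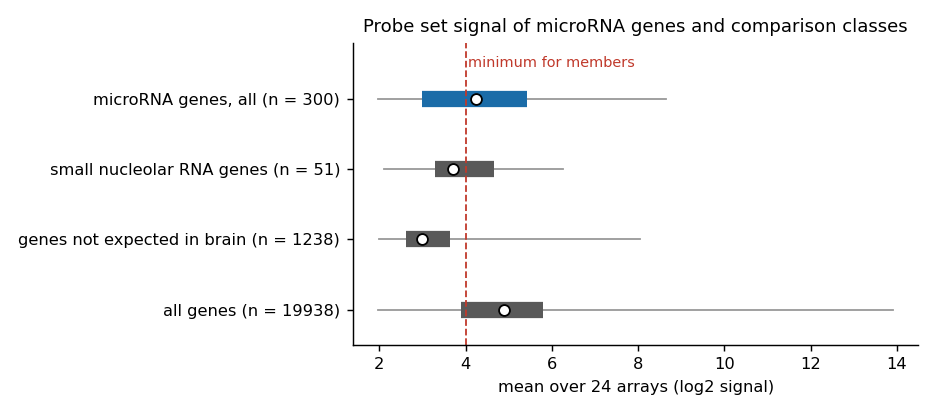
Mean probe set signal over 24 arrays (log2, horizontal axis) of 300 microRNA genes, 51 small nucleolar RNA genes, 1238 genes not expected in brain and all 19938 genes. Dots are medians, thick bars the quartiles and thin lines the whole range, and the dashed line marks the minimum of 4. The microRNA genes had a median of 4.25, above the 2.99 of genes not expected in brain and below the 4.90 of all genes.

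The means of the members ran from 4.02 to 8.64, with a median of 5.32. The 6 members with the highest means were Mir341 (8.64), Mir667 (7.90), Mir328 (7.58), Mir320 (7.58), Mir346 (7.57) and Mir598 (7.22). Mir341 and Mir667 belong to the imprinted Dlk1-Dio3 cluster. Mir328, Mir346 and Mir598 lie within the genes Elmo3, Grid1 and Xkr6, and Grid1 encodes a glutamate receptor subunit. Just inside the minimum were Mir695 (4.02), Mir196b (4.04) and Mir30c-2 (4.04), and just outside it were Mir130b (3.97), Mir365-2 (3.95) and Mir6516 (3.95). Mir124a-2 and Mir124a-3, precursors of the abundant neuronal miR-124, were members, and so were Mir9-1, Mir128-2 and Mir138-1, which are also known from neurons. Mir122 of liver (3.42), Mir208a of heart (3.15) and Mir451a of red blood cells (2.90) lay under the minimum, but so did Mir153 (3.42) and Mir129-2 (3.38), which are known from brain. Mir615 of the Hoxc5 gene (6.93), whose known sites of expression lie outside the midbrain, and Mir200c (6.12) and Mir141 (5.37), known from epithelia, lay above it. The minimum thus did not separate genes known from brain from others. These genes were picked for illustration after their values were seen.

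The members varied more between arrays of a group than other genes did. Their residual SD had a median of 0.219 on the log2 scale, against 0.156 over all genes and 0.155 for the 133 microRNA genes under the minimum. Without the 2 arrays that stood apart the medians were 0.198 and 0.141 for members and all genes. The median standard error of a group difference was 0.114 for members and 0.0895 for all genes.

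Those arrays held the lowest values of a large share of the members. Naïve GASH/Sal 6 had the lowest value of all 24 arrays for 57 members (34.1%), against 10.4% of all genes. Stimulated Syrian 4 had the lowest value for 26 members (15.6%), against 7.62% of all genes. Together they held the lowest value of 83 of 167 members (49.7%), whereas over all genes the share was 18.0%. For 32 members (19.2%) both arrays lay below each of the other 22, compared with 478 of all genes (2.40%), and for 1 member both lay above them, compared with 808 of all 19938 genes. Stimulated Syrian 4 also held the highest value of 23 members, so its shift was not in 1 direction. The largest residual SDs belonged to Mir384 (1.21), Mir325 (0.921), Mir376b (0.697), Mir300 (0.669), Mirlet7f-1 (0.654), Mir340 (0.643), Mir186 (0.641) and Mir136 (0.630). Mir325 lay at 3.09 in naïve GASH/Sal 6 and 5.16 in stimulated Syrian 4, while the other 22 arrays ran from 5.39 to 7.84. Mir186, which lies in an intron of the RNA-binding protein gene Zranb2, lay at 3.40 and 4.82 in them, and between 4.86 and 6.36 elsewhere. Mir181b-1 lay at 3.23 and 3.83 there, and between 4.26 and 5.44 in the other arrays.

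The median deviation of the members from their own means, taken array by array, summarises this. It was -0.288 in naïve GASH/Sal 6, where 134 of 167 members were below their own mean, and between -0.139 and 0.173 in the other 23 arrays. Stimulated Syrian 4 was at -0.084 while its median over all genes was 0.082. By group it was 0.055 ± 0.0879 (SD, n = 6) in naïve Syrian, 0.0046 ± 0.0788 (SD, n = 6) in stimulated Syrian, -0.024 ± 0.157 (SD, n = 6) in naïve GASH/Sal and -0.023 ± 0.0986 (SD, n = 6) in stimulated GASH/Sal animals. The 4 groups overlapped. In naïve GASH/Sal 6, vessel markers were at 0.223 and genes of microRNA processing at -0.174 relative to their own means. The other marker lists lay between -0.131 and 0.075 in it. In stimulated Syrian 4, vessel markers were at 0.395, cerebellar granule cell markers at 0.346 and astrocyte markers at 0.251. Markers of midbrain roof (0.219), oligodendrocytes (0.197), choroid plexus (0.182), blood (0.178) and microglia (0.055) were raised there too. Genes not expected in brain had a median of 0.166 in that array. Neuronal markers were at -0.055 and genes of microRNA processing at -0.070. The part of tissue makeup in these 2 arrays was not tested.

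**Figure D2:**
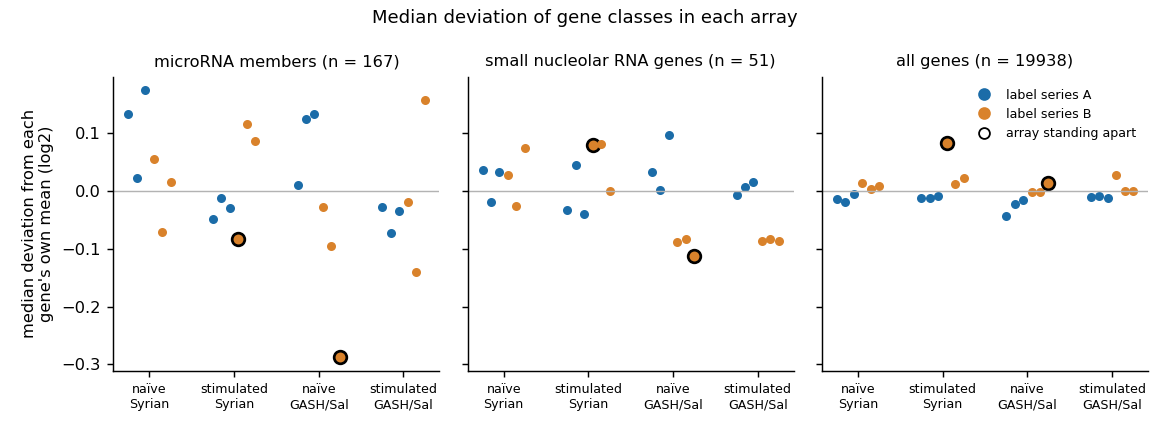
Median deviation from each gene's own mean (log2, vertical axis) in each of the 24 arrays, by group, for the 167 members, 51 small nucleolar RNA genes and all 19938 genes. Each dot is 1 array, blue for label series A and orange for series B, and black rims mark the 2 arrays that stood apart. Naïve GASH/Sal 6 lies at -0.288 for the members, below all other arrays.

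The first comparison asked which members differ between the strains without sound. None of the 167 members passed an adjusted p of 0.05 (0 members) in limma's fit, and neither did any gene over the whole table (0%). At an unadjusted p under 0.05, 4 members were higher in naïve GASH/Sal animals, where 2.29% of all genes passed in this direction, and 18 members (10.8%) were lower, where 3.74% of all genes passed. The microRNA genes under the minimum gave 1 higher and 3 lower of 133. Taken at any size, 127 of 167 members (76.0%) were lower in naïve GASH/Sal, against 54.2% of all genes. The median member difference was -0.098 (log2), and the median over all genes was -0.011. Without the array naïve GASH/Sal 6 the member median was -0.042. Without both arrays that stood apart, 21 members (12.6%) were higher and 19 (11.4%) lower at an unadjusted p under 0.05, where 5.35% and 5.59% of all genes passed. Within label series the median was -0.036 in series A and -0.162 in series B, which holds that array.

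The 18 members that were lower at the unadjusted threshold came from several clusters. Mir125a, of the miR-99b/let-7e/miR-125a cluster and related to the developmental timing microRNA lin-4, had the lowest p. It ran from 5.51 to 6.11 with a median of 5.78 in naïve GASH/Sal and from 5.85 to 6.35 with a median of 6.01 in naïve Syrian animals. The values of 4 of the 6 GASH/Sal arrays lay below the Syrian range, and the other two overlapped with it. The difference was -0.29 (SE 0.0885, adjusted p = 0.713), and it was -0.29 in each label series. Mir26b, in an intron of the phosphatase gene Ctdsp1, ran from 3.97 to 4.43 with a median of 4.22 in naïve GASH/Sal and from 4.40 to 4.75 with a median of 4.52 in naïve Syrian animals. It differed by -0.35 (SE 0.106, adjusted p = 0.713), with all 6 GASH/Sal arrays below the Syrian mean. Mir652, in an intron of Tmem164, differed by -0.33 (SE 0.11, adjusted p = 0.764).

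Mir345 was the only member whose groups did not overlap in this contrast (37 of all genes, 0.186%, did not overlap in this direction). It was chosen after its values were seen. It ran from 5.89 to 6.37 with a median of 6.29 in naïve GASH/Sal and from 6.40 to 6.67 with a median of 6.48 in naïve Syrian animals. The difference was -0.29 (SE 0.105, adjusted p = 0.764). Its values in stimulated animals ran from 6.0 to 6.50 in GASH/Sal and from 6.38 to 7.02 in Syrian hamsters, and overlapped.

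**Figure D3:**
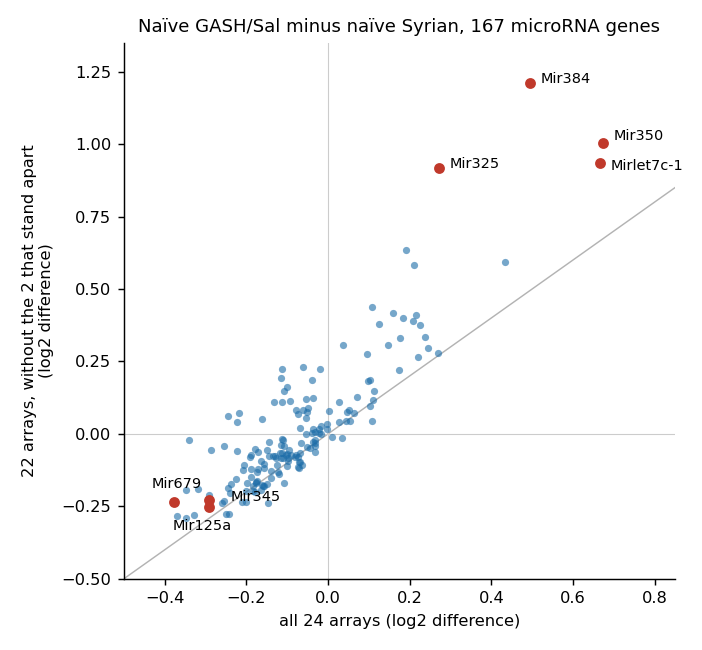
Difference between naïve GASH/Sal and naïve Syrian animals (log2) of the 167 members in all 24 arrays (horizontal axis) and without the 2 arrays that stood apart (vertical axis). Each dot is a member, the diagonal marks equal values, and 7 members are labelled in red. Mir350 and Mirlet7c-1 lie furthest right, at 0.67, and reach 1.0 and 0.94 on the vertical axis.

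Mirlet7c-1 and Mir350 were the members with the largest positive difference between naïve strains. They were named for these results, so their values are a description. Mirlet7c-1 is one of several precursors of let-7, a family that accumulates as cells differentiate and represses Lin28 and Ras genes. It ran from 2.96 to 5.09 with a median of 4.63 in naïve GASH/Sal and from 3.13 to 4.38 with a median of 3.81 in naïve Syrian animals. Naïve GASH/Sal 6 was the low value, and the other five arrays of its group, from 4.46 to 5.09, lay above all naïve Syrian arrays. In stimulated animals Mirlet7c-1 ran from 3.72 to 4.51 with a median of 4.14 in GASH/Sal and from 2.94 to 4.62 with a median of 4.11 in Syrian hamsters. The GASH/Sal range lay within the wider Syrian one, whose low value was that of stimulated Syrian 4.

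Mir350 had a similar pattern between naïve animals. It ran from 2.93 to 5.09 with a median of 4.98 in naïve GASH/Sal and from 3.53 to 4.40 with a median of 3.96 in naïve Syrian animals. The low value was again that of naïve GASH/Sal 6, and the other five, from 4.76 to 5.09, lay above the naïve Syrian range. After sound Mir350 ran from 4.28 to 5.25 with a median of 4.84 in GASH/Sal and from 3.48 to 4.78 with a median of 4.49 in Syrian animals. The ordering by group median was thus naïve Syrian, stimulated Syrian, stimulated GASH/Sal and naïve GASH/Sal, and neighbours in this order overlapped.

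In all 24 arrays the difference between naïve strains was 0.67 for both genes, with SE 0.228 for Mirlet7c-1 and 0.240 for Mir350 and an adjusted p of 0.764 for each. They were the only 2 members to differ by at least 1.5-fold at an unadjusted p no higher than 0.05, which 0.0251% of all genes did. Without naïve GASH/Sal 6 the fit gave 0.93 for Mirlet7c-1 (adjusted p = 0.0445) and 0.99 for Mir350 (adjusted p = 0.0185), and called no other member among the 13 genes that passed (0.0652%). It gave 0.94 (adjusted p = 0.00524) and 1.0 (adjusted p = 0.000427) without both arrays that stood apart. Since these genes were named for this result, the values are no independent evidence of it. Over the 24 alternatives tried, the adjusted p ran from 0.00524 to 0.991 for Mirlet7c-1 and from 0.000427 to 0.991 for Mir350. Series A alone gave 0.87 for Mirlet7c-1 and 0.83 for Mir350, and series B alone gave 0.47 and 0.52.

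The host locus of let-7c was measured by 3 members. Mir99a and Mirlet7c-1 both lie in introns of the long non-coding transcript Mir99ahg. Mir99a differed between naïve strains by 0.22 (SE 0.198), and by 0.41 without the 2 arrays that stood apart, with 0.75 in series A and -0.32 in series B. Mir99ahg differed by 0.15 (SE 0.187), and by 0.31 without those arrays, and the adjusted p of either gene was 0.298 or above in both fits.

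Mir325 was also called without both arrays in the strain contrast without sound (3 members among 64 genes, 0.321% of all genes). It differed by 0.92 (SE 0.190, adjusted p = 0.0258), whereas in all 24 arrays the difference was 0.27 (SE 0.427, adjusted p = 0.947). The adjusted p of Mir325 ran from 0.0258 to 0.998 over 5 alternatives, those without either or both of these arrays and each label series alone. Mir325 ran from 3.09 to 7.83 with a median of 7.30 in naïve GASH/Sal and from 5.39 to 7.22 with a median of 6.28 in naïve Syrian animals. Within series it differed by 0.68 in series A and by -0.14 in series B. Mir384 had a still larger difference without both arrays, 1.21 (SE 0.35), with a wide spread that ran from 4.09 to 7.23 in naïve Syrian animals. For Mir384 series A gave 1.57 and series B -0.58. Mir490, in the muscarinic receptor gene Chrm2, differed by 0.43 (SE 0.187, adjusted p = 0.785), with 5 of 6 naïve GASH/Sal arrays above the Syrian mean. Both Mir325 and Mir384 were picked after their values were seen.

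**Figure D4:**
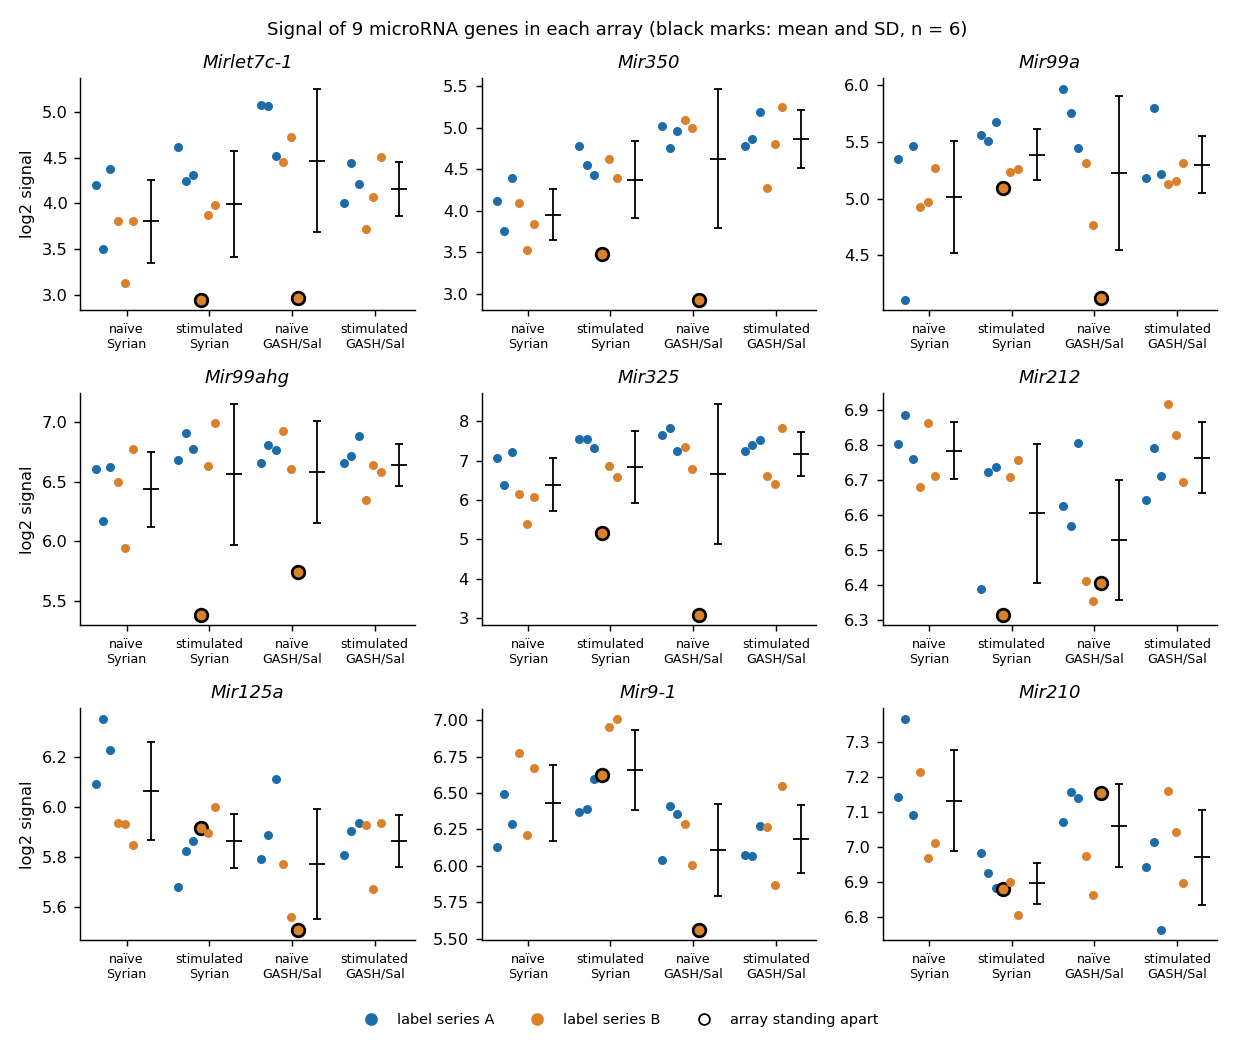
Signal (log2, vertical axes) of 9 members in each of the 24 arrays by group. Dots are arrays, blue for label series A and orange for series B, black rims mark the 2 arrays that stood apart, and black marks give the mean and SD of 6 arrays. Mirlet7c-1 and Mir350 are at 2.96 and 2.93 in naïve GASH/Sal 6, below the other five arrays of that group.

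The second comparison asked which members differ between the strains after sound. No member was called (0 members, 0% of all genes). At an unadjusted p under 0.05, 0 members were higher in stimulated GASH/Sal (1.82% of all genes) and 8 members (4.79%) were lower (3.60% of all genes). The member median was -0.038, and the median over all genes was -0.014. Without both arrays that stood apart it was -0.048, and 2 members (1.2%) were higher and 16 (9.58%) lower at the unadjusted threshold, where 2.40% and 2.68% of all genes passed. In all 24 arrays, of the members, 62.3% were lower at any size, against 56.0% of all genes.

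Mir9-1, a precursor of miR-9, which acts in neural progenitors and represses the neuronal silencer REST, had the lowest p of this contrast. It ran from 5.87 to 6.55 with a median of 6.17 in stimulated GASH/Sal and from 6.37 to 7.01 with a median of 6.61 in stimulated Syrian animals. Only the highest GASH/Sal array reached into the Syrian range, and all 6 lay below the Syrian mean. The difference was -0.47 (SE 0.136, adjusted p = 0.887). Mir9-1 differed by -0.31 in series A and -0.64 in series B, and by -0.50 without the arrays that stood apart. In naïve animals it differed by -0.32 (SE 0.136), and by -0.19 without naïve GASH/Sal 6. Mir9-3, the other member of its family, had a median of 4.13 in stimulated GASH/Sal and 4.15 in stimulated Syrian animals.

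Other members with low p after sound had smaller differences. Mir335, in an intron of the imprinted gene Mest, differed by -0.26 (SE 0.0918, adjusted p = 0.887). Mir185, in the chromosome segment that is deleted in the 22q11 syndrome in people, differed by -0.21 (SE 0.0766, adjusted p = 0.891). Mir652 was lower in stimulated GASH/Sal too, by -0.27 (SE 0.11), and Mir345 by -0.24 (SE 0.105). The strain contrasts with and without sound used different animals. On the positive side Mir30d differed by 0.17 and Mir212 by 0.16, each with an adjusted p of 0.901.

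The third comparison asked which members differ after sound in GASH/Sal animals. No member was called (0 members, 0% of all genes). At an unadjusted p under 0.05, 3 members (1.80%) were higher and 4 (2.40%) lower, where 2.88% and 1.58% of all genes passed. The member median was 0.019, beside 0.013 over all genes. The sign of this median depended on the label series: it was -0.153 in series A and 0.153 in series B. At any size 73 members (43.7%) were lower, against 44.2% of all genes. Without both arrays that stood apart the median was -0.074, and 5 members (2.99%) were higher and 19 (11.4%) lower at the unadjusted threshold, where 3.83% and 1.93% of all genes passed. The activity genes Fos, Egr1 to Egr4, Npas4, Junb, Nr4a1 and Arc, which neurons switch on when they fire, were higher in 9 of 9 cases, 7 of them at an unadjusted p under 0.05, with a median of 0.404 and 0 called after adjustment. By array, their level relative to their own means lay between 0.359 and 0.444 in 4 of the 6 stimulated GASH/Sal arrays, and at -0.129 and -0.066 in arrays 2 and 6, within the range of naïve animals. In Syrian animals 8 of 9 were higher, 2 at an unadjusted p under 0.05, with a median of 0.128, and stimulated Syrian 2 had the highest level of all arrays (0.501). Oligodendrocyte markers were higher after sound in 3 of 3 cases in each strain, with medians of 0.203 in GASH/Sal and 0.121 in Syrian animals. Their part in the member values was not tested.

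Mir212 was the member with the lowest p among those higher after sound in GASH/Sal. It belongs with Mir132 to a cluster whose transcription follows neuronal activity through the transcription factor CREB. It ran from 6.64 to 6.92 with a median of 6.75 in stimulated and from 6.35 to 6.80 with a median of 6.49 in naïve GASH/Sal animals. All 6 stimulated arrays lay above the naïve mean, and the groups overlapped through 1 high naïve array of series A. The difference was 0.23 (SE 0.0855, adjusted p = 0.999), with 0.048 in series A and 0.42 in series B. Mir24-2 differed by 0.22 (SE 0.0913, adjusted p = 0.999) and Mir615 by 0.21 (SE 0.0972, adjusted p = 0.999), and for both all 6 arrays after sound exceeded the naïve mean.

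Among members lower after sound in GASH/Sal, Mir181a-2 had the lowest p. It ran from 3.88 to 4.39 with a median of 4.05 in stimulated and from 4.28 to 4.42 with a median of 4.33 in naïve animals, a difference of -0.25 (SE 0.0861, adjusted p = 0.999). Mir125b-1, a precursor of miR-125b that is rich in brain, ran from 3.64 to 4.29 with a median of 3.95 in stimulated and from 4.15 to 4.70 with a median of 4.34 in naïve animals. The difference was -0.47 (SE 0.170, adjusted p = 0.999), with all 6 stimulated arrays below the naïve mean. These values lie near the minimum of 4. Mir713 differed by -0.34 (SE 0.137). In series A alone 1 member, Mir7-1 in an intron of Hnrnpk, was called, with a difference of -0.61 (adjusted p = 0.0454, 0.0351% of all genes called), and in series B its difference was 0.11 (adjusted p = 0.998). In all 24 arrays Mir7-1 differed by -0.25 (SE 0.138, adjusted p = 0.999). Mir7-1 was named after its values were seen.

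The fourth comparison asked which members differ after sound in Syrian animals, which heard the sound without inherited seizures. No member was called (0 members, 0% of all genes). At an unadjusted p under 0.05, 2 members (1.2%) were higher, where 4.35% of all genes passed, and 8 members (4.79%) were lower, where 2.29% of all genes passed. The 133 microRNA genes under the minimum gave 13 higher and 2 lower. The member median was -0.041, beside 0.019 over all genes. It was -0.118 in series A and 0.051 in series B, and -0.022 without both arrays that stood apart. Without them 11 members (6.59%) were higher and 9 (5.39%) lower at the unadjusted threshold, where 5.44% and 3.66% of all genes passed. In all 24 arrays at any size 108 members (64.7%) were lower, against 42.5% of all genes.

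Mir210, a target of the hypoxia-inducible factor, had the lowest p in this contrast. It ran from 6.81 to 6.98 with a median of 6.89 in stimulated Syrian and from 6.97 to 7.37 with a median of 7.12 in naïve Syrian animals. All stimulated arrays lay below the naïve mean, and the ranges met at their ends. The difference was -0.24 (SE 0.0767, adjusted p = 0.70), with -0.27 in series A and -0.20 in series B. In GASH/Sal animals Mir210 ran from 6.76 to 7.16 after sound and from 6.86 to 7.16 without it. Mir191, which shares a transcript with Mir425 in the gene Dalrd3, differed by -0.26 (SE 0.0904, adjusted p = 0.719). Mir692-1 differed by -0.55 (SE 0.200, adjusted p = 0.719), but by 0.058 in series B alone. Among higher members, Mir193a differed by 0.26 (SE 0.102) and Mir218-1, in the axon guidance gene Slit2, by 0.25 (SE 0.114), with an adjusted p of 0.719 and 0.744. Without stimulated Syrian 4 these were 0.15 and 0.16. Mir335 differed by 0.18, with an adjusted p of 0.744.

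The last comparison asked whether the strains differ in their response to sound. No member was called (0 members, 0% of all genes). At an unadjusted p under 0.05, 4 members (2.40%) had a more positive response in GASH/Sal (1.75% of all genes) and 0 members a more negative one (1.93% of all genes). The member median was 0.037, and that over all genes -0.0030. At any size 69 members (41.3%) had a more negative response, against 51% of all genes. Without both arrays that stood apart the member median was -0.041, and 6 members (3.59%) had a more positive and 21 (12.6%) a more negative response at the unadjusted threshold, where 3.58% and 2.89% of all genes passed. Mir212 had the largest of these differences relative to its error. After sound its mean was 0.23 higher in GASH/Sal and 0.18 lower in Syrian animals, where it ran from 6.32 to 6.76 with a median of 6.71 after sound and from 6.68 to 6.88 with a median of 6.78 without it. The difference of the responses was 0.41 (SE 0.121, adjusted p = 1.0), with 0.25 in series A, 0.58 in series B and 0.34 without both arrays. Stimulated Syrian 4 was the lowest of the stimulated Syrian arrays for Mir212. Mir129-1 (0.31, SE 0.129) and Mir125a (0.29, SE 0.125) followed, each with an adjusted p of 1.0. On the negative side Mir181a-2 differed by -0.23 and Mir185 by -0.18. For Mirlet7c-1 the difference of responses was -0.50 (SE 0.323) and for Mir350 -0.19 (SE 0.339). These were -0.95 and -0.68 without both arrays that stood apart, each with an adjusted p of 0.744, and over all alternatives the adjusted p of either gene ran from 0.744 to 1.0.

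Mir132, the partner of Mir212, did not share these values. It ran from 3.81 to 4.38 with a median of 4.06 in stimulated GASH/Sal and from 3.79 to 4.25 with a median of 4.05 in naïve GASH/Sal animals. Its difference after sound was 0.040 (SE 0.0979) in GASH/Sal and -0.076 (SE 0.0979) in Syrian animals. Within groups and label series it correlated with Mir212 at r = -0.13 (rho = -0.094, adjusted permutation p = 0.856 and 0.858). The mean of Mir132 over all arrays was 4.10, near the minimum.

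The Dlk1-Dio3 cluster was the largest group of members. It is an imprinted array of microRNAs, read from the maternal chromosome in 1 long stretch of transcription and known for its activity in brain. Of the 38 measured genes on the list used here for it, 29 were members, a count that the minimum itself set. The list may not be complete, and the member Mir496a is not on it. Between naïve strains 27 of 29 were lower in GASH/Sal, with a median of -0.117, against 76.0% of all members and 54.2% of all genes. Without both arrays that stood apart the median was -0.018. After sound 25 of 29 were lower in GASH/Sal, against 62.3% of all members and 56.0% of all genes, with a median of -0.120 in all arrays and -0.211 without both arrays. The differences after sound were small within each strain, with medians of -0.042 in GASH/Sal and -0.054 in Syrian animals, and 12 higher and 17 lower in each. Without both arrays these medians were -0.147 and 0.067. At an unadjusted p under 0.05, 2 of the 29 were lower between naïve strains (3.74% of all genes) and 0 between stimulated ones (3.60% of all genes). Mir679 had the largest of these differences between naïve strains, -0.38 (SE 0.146, adjusted p = 0.764). The members of this cluster share transcription, and their values are not independent of each other.

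**Figure D5:**
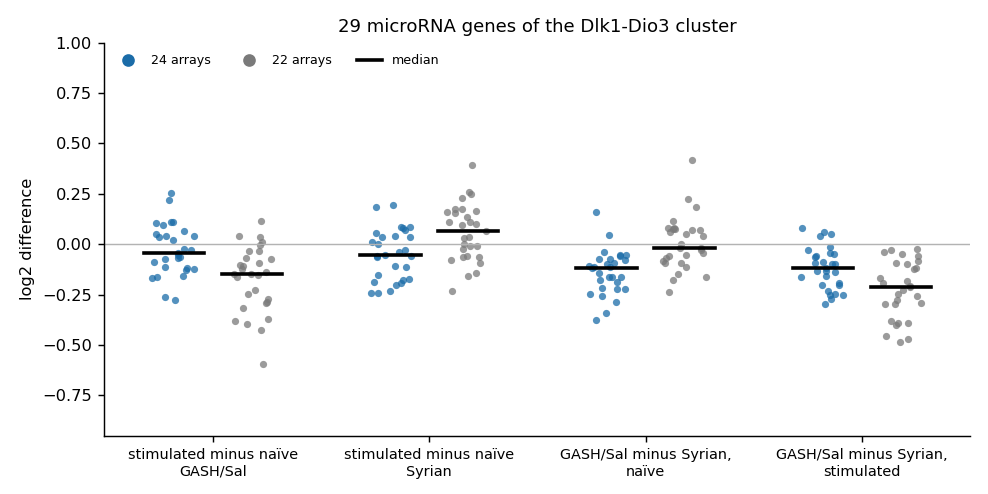
Differences (log2, vertical axis) of 29 members of the Dlk1-Dio3 cluster in 4 contrasts, from all 24 arrays (blue) and from the 22 arrays without the 2 that stood apart (grey). Each dot is a gene and black lines are medians. The median of GASH/Sal minus Syrian was -0.117 without sound and -0.120 after sound in 24 arrays, and -0.018 and -0.211 in 22 arrays.

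The let-7 family had 8 members of 9 measured genes, and these did not move as 1 group. Between naïve strains 4 were higher and 4 lower in GASH/Sal, with a median of 0.0094 in all arrays and 0.206 without both arrays that stood apart. Mirlet7c-1 was the highest at 0.67 and Mirlet7i the lowest at -0.22, and these were the only ones at an unadjusted p under 0.05. Of all genes 2.29% passed as higher and 3.74% as lower in this contrast, and Mirlet7c-1 was named for this result. After sound, 3 of the 8 were higher and 5 lower in GASH/Sal than in Syrian animals, with a median of -0.030, and of -0.097 without both arrays. The 3 members of the let-7a-1/f-1/d cluster had a median of 0.036 between naïve strains, and of 0.224 without both arrays.

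Clusters that hold related precursors differed in how closely their members followed each other. In the miR-99b/let-7e/miR-125a cluster all 3 members were lower in naïve GASH/Sal than in naïve Syrian animals, with Mir99b at -0.18 (SE 0.0960), Mirlet7e at -0.017 (SE 0.116) and Mir125a at -0.29. In the miR-106b-25 cluster all 3 were lower too, with a median of -0.201, and Mir181c and Mir181d had a median of -0.222. Of all members 76% were lower in this contrast. Within groups and label series Mir25 correlated with Mir93 at r = -0.39 (rho = -0.29). All members were higher in the clusters miR-99a/let-7c-1 (median 0.440), miR-100/let-7a-2/miR-125b-1 (0.198) and miR-15a/16-1 (0.088). For Mir200c and its cluster partner, known from epithelia, the median was -0.277, and -0.151 without both arrays that stood apart. In the miR-23a/27a/24-2 cluster all 3 members were higher after sound in GASH/Sal, as were 56.3% of all members. The cluster median was 0.063, and -0.0026 without both arrays. The 3 members in the Clcn5 intron ran from 0.0037 to 0.13 in the same contrast. Among families known from brain, the median after sound in GASH/Sal was -0.021 for miR-124, -0.033 for miR-128, 0.083 for miR-9 and -0.187 for miR-125, each with 2 members. The miR-125 median lies between Mir125b-1 at -0.47 and Mir125a at 0.092. In miR-124 and miR-128 too 1 gene was higher and 1 lower, while both miR-9 genes were higher. Without both arrays that stood apart these were -0.027, -0.127, -0.0020 and -0.231. The miR-138 family was at 0.017, and at -0.0037 without those arrays. Between strains after sound the medians were -0.232 for miR-9 and -0.180 for miR-128. The miR-9 median lies between Mir9-1 at -0.47 and Mir9-3 at 0.011, whereas both miR-128 genes were lower.

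Members that lie in host genes were compared with the host's probe set of highest mean, whose place in the genome was not checked. Over 46 pairs with 40 hosts, the correlation across 24 arrays, with values centred within group and label series, had a median of 0.162 and ran from -0.520 to 0.714, and 30 of 46 pairs were above 0. None of the pairs passed after adjustment (0 pairs), and 3 had an unadjusted permutation p under 0.05. The highest was Mir186 with Zranb2, at r = 0.71 and rho = 0.64 (adjusted permutation p = 0.132 and 0.364). It was 0.61 without the 2 arrays farthest from the median of Zranb2 and 0.52 without both arrays that stood apart. Mir7-1 with Hnrnpk was at r = 0.61 (rho = 0.63, adjusted permutation p = 0.342 and 0.376), and Mir128-2 with Arpp21, a gene of striatal and cortical neurons, at r = 0.55 (rho = 0.53, adjusted permutation p = 0.354 and 0.445). The lowest was Mir199a-1 with Dnm2, at r = -0.52 (rho = -0.45). Mir199a-1 is read from the strand opposite to Dnm2.

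A further 26 pairs, 23 of them between members of 1 cluster, were added after the data were seen. Their median r was 0.187, and 21 were above 0. Of these, 4 passed after adjustment for r and 1 for both r and rho. That pair was Mirlet7c-1 with Mir99a, at r = 0.71 and rho = 0.69 (adjusted permutation p = 0.0418 and 0.0153), which was 0.57 without the 2 arrays farthest from the median and 0.64 without the arrays that stood apart. Mirlet7c-1 with its host Mir99ahg (r = 0.79, rho = 0.74), Mir27a with Mir23a (r = 0.64, rho = 0.60) and Mir99a with Mir99ahg (r = 0.52, rho = 0.54) passed for r only, each with an adjusted permutation p of 0.0418 for r. For rho it was 0.0975 for the first and the second and 0.103 for the last. Without the 2 arrays farthest from the median they were at 0.68, 0.53 and 0.48. Without the arrays that stood apart they were at 0.55, 0.56 and 0.48. Mir141 with Mir200c was at r = 0.67 (rho = 0.60, adjusted permutation p = 0.0556 and 0.103). Other neighbours did not share their values to this degree: Mir24-2 correlated with Mir23a at r = -0.074 (rho = -0.097), and Mir25 with Mir106b at r = 0.071 (rho = 0.020).

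The machinery that makes and uses microRNAs was measured by 33 of 42 listed genes. None was called in any of the 5 contrasts (0 genes), where 0% of all genes were called. After sound 20 of 33 were higher in GASH/Sal, with a median of 0.037, and 24 of 33 in Syrian animals, with a median of 0.036. Between naïve strains 20 of 33 were higher in GASH/Sal, with a median of 0.013, and after sound 18 of 33, with a median of 0.0097. The mean of these genes ran from 6.22 to 6.50 in naïve GASH/Sal and from 6.26 to 6.45 in naïve Syrian animals, and from 6.36 to 6.48 and from 6.32 to 6.45 in the stimulated groups, so that the groups overlapped.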

How the data were processed

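The authors deposited log2 probe set signals of 24 hamster IC samples on a mouse whole-transcript array, made with RMA (named in the submitters' notes, no version given), which corrects background, normalises between arrays and summarises probes. The 35556 probe sets had values between 1.2 and 14.3, and the arrays' medians lay between 4.50 and 4.65. Arrays give no read depth, so their number limits the precision. No column was left out (0 columns). By the platform's annotation 21789 probe sets had 1 symbol, 1621 several and 12146 none. Each gene kept the probe set of highest mean, which left 19938 genes. 61 further microRNA probe sets with several symbols were not used. Sequences and genome coordinates of the microRNAs are not used here.

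limma (version 3.58.1, R version 4.3.3) fitted 4 groups and the label series on all 24 arrays, with 19 residual degrees of freedom. Two-sided p-values received Benjamini-Hochberg adjustment over all genes within each of 5 contrasts, at 0.05. The labels call the arrays biological replicates. Host and cluster pairs were correlated with a permutation test (100000 resamples within group and label series, scipy version 1.17.1), adjusted over the pairs. For the hamster arrays the sources used here give a fold threshold of 1.5, tried as an alternative, and no statistical test. The fit was tested on simulated data with independent noise and no array that stood apart, so that test does not cover such arrays.

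Members, gene lists, clusters, hosts and tests were chosen with earlier results of these data known. The genes named were Mirlet7c-1, Mir350, the 3 members with the lowest p per direction and contrast, called members, the 6 highest means, 3 genes either side of the minimum, and their cluster and host partners. Others were picked after their values were seen. The alternatives covered the label series, a replicate block, each series alone, the samples in the fit, filters, probe set choice, normalisation, eBayes settings, array weights, fold thresholds, the minimum for members and leaving out each array. Leaving out both arrays that stood apart was added after seeing the data.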

Additional observations from a re-analysis of the deposited data

Results flagged for a closer look

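An array far from the other five of its group was looked for in 31 named genes and 4 groups, 124 cases in all, and 10 were found where chance gives about 1 in 20 (6.2). Of these, 3 were in stimulated Syrian 4 and 2 in naïve GASH/Sal 6. In stimulated Syrian 4, Mir350 was at 3.48 (others 4.39 to 4.78), Mir341 at 7.73 (others 8.74 to 9.06) and Mir320 at 8.08 (others 7.43 to 7.6). Naïve GASH/Sal 6 was the low array for Mir350 at 2.93 (others 4.76 to 5.09) and Mirlet7c-1 at 2.96 (others 4.46 to 5.09). The remaining cases were Mir185 at 6.49 in naïve Syrian 4, Mir191 at 5.37 in stimulated Syrian 2, Mir193a at 4.70 in stimulated GASH/Sal 6, Mir320 at 7.22 in stimulated GASH/Sal 4 and Mir713 at 5.34 in stimulated GASH/Sal 1.

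Mir212 lay above the naïve mean of the same strain in all 6 stimulated GASH/Sal arrays and below it in all 6 stimulated Syrian arrays. The difference of the responses was 0.414 (SE 0.121), and limma's adjusted p was 1.0.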

How the results depend on the processing

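With 0 members called in each contrast and a median standard error of 0.114 (log2), small differences cannot be told from 0 here. Of 316 alternative values for the counts, medians and correlations, 309 kept their side of the threshold and moved by less than the spread. By this rule a median could change sign and still count as unmoved. With 1 array left out, the member median after sound in GASH/Sal ran from -0.072 to 0.041. That of the difference of responses ran from -0.017 to 0.072. In the strain contrast without sound 3 members were called without the 2 arrays that stand apart (0.321% of all genes). With array weights 2 members were called, and the share of all genes in that fit is not given here, so this count has no background. With 1 array left out 0 to 2 were called, 2 being the count without naïve GASH/Sal 6 (0.0652% of all genes). The 1.5-fold rule, which takes an unadjusted p of at most 0.05, picked 2 members (0.0251% of all genes). Where 2 are given, they were Mirlet7c-1 and Mir350, which were named for this result. In label series A alone 1 member was called after sound in GASH/Sal, where the median was -0.153 in series A and 0.153 in series B. The cause was not tested. With array weights Mir350 was at 0.82 (adjusted p = 0.0276) and Mirlet7c-1 at 0.76 (adjusted p = 0.0473) between naïve strains.

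Signs changed in 8 of 957 alternatives for named genes, and in none of them was the gene called. In series B alone the difference of responses was 0.094 for Mir350 and 0.035 for Mirlet7c-1, the response of Mirlet7c-1 in GASH/Sal was 0.049 and that of Mir692-1 in Syrian animals 0.058. Mirlet7c-1 after sound between strains was -0.17 in series A alone and -0.013 without the 2 arrays that stand apart. Mir350 after sound in GASH/Sal was -0.095 without those 2 arrays, and ran from -0.086 (without naïve GASH/Sal 6) to 0.37 when 1 array was left out.

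Arrays of the same replicate number in different groups correlated in their deviations at -0.159 to 0.316. Of 36 pairs, 12 were over 0.1 and 9 were best with their own number. These values show no clear pairing by number, but they cannot exclude one. With the replicate block in place of the label series, 0 members were called in each contrast. The member medians, at -0.098 between naïve strains, could not change, because every group holds every replicate number.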
